A study of Triticum aestivum with 32 samples.

Results

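A run of neighbouring gene models on wheat chromosome 3B, from TraesCS3B02G130300 to TraesCS3B02G131300, was examined across heat, drought and salt treatments of the flag leaf. The members are the high confidence gene models of that identifier range that reached at least 1 TPM in at least 4 of the 32 libraries. TPM is a unit that divides the reads of a transcript by its length and scales each library to the same total, so levels can also be compared between gene models. The range held 11 high confidence gene models, of which 6 passed: TraesCS3B02G130300, TraesCS3B02G130500, TraesCS3B02G130900, TraesCS3B02G131000, TraesCS3B02G131200 and TraesCS3B02G131300. The whole table held 269428 gene models, and 60684 passed the same threshold and were tested.

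The members were chosen by their rise with heat and their TPM in these same libraries, so the comparison of heated with unheated plants is given as a description, without a test. Which heated groups entered that choice is not stated.

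The working name of the run is a cluster of small heat shock proteins. The sources used here pair these identifiers with no gene name or protein, so the name could not be checked and no role is given to any single member. As background, small heat shock proteins are chaperones that bind unfolding proteins and hold them in a state from which other chaperones can refold them. In plants they form several families that sit in the cytosol and in organelles. Most are nearly silent in unstressed leaves, and heat shock transcription factors switch them on when the temperature rises.

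Stettler, a Canadian red spring bread wheat, was grown in pots and treated from Feekes stage 8, with 8 pots per treatment. The 8 groups, of 4 libraries each, were salt plus heat plus drought, salt plus heat, heat plus drought, heat, salt plus drought, salt, drought and control. Plants under heat were kept at 30 °C by day in another greenhouse, and the other groups at 24 °C by day, all with 18 °C nights. Drought groups were held at 40% of field capacity and the others at 100%, and the salt groups received sodium chloride at 20, then 40, then 80 mM. Heat and greenhouse coincide and cannot be told apart. In whole flag leaves, fewer cells of a type and less RNA per cell cannot be told apart either.

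A library had 44106 to 53532 gene models at 1 TPM or more, and the 100 most abundant gene models held 13.6% to 36.1% of all TPM. Low confidence gene models held 21.6% of all TPM in salt replicate 3 and 7.81% to 9.9% in the other libraries. TPM keep no record of read number, so depth is unknown and no counting interval can be given. The authors' estimation divided reads that fit several transcripts among them. Copies that lie side by side can resemble each other closely, which makes the values of single members uncertain, and the summed TPM of the 6 members is given beside them. The series text calls the replicates independent biological ones.

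All 6 members were at or near 0 without heat and were measured in the heated groups. Summed over the members, the run held 63.1 ± 10.4 TPM under salt plus heat plus drought, 158 ± 81.4 TPM under salt plus heat, 117 ± 49.0 TPM under heat plus drought and 29.0 ± 24.0 TPM under heat alone (SD, n = 4 each). The 16 unheated libraries held between 0.1 and 1.41 TPM. The lowest heated library, heat replicate 1 with 7.83 TPM, lay above every unheated one.

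TraesCS3B02G131000 had the highest level in 14 of the 16 heated libraries. Its TPM were 18.98, 13.4, 20.6 and 18.0 under salt plus heat plus drought, 10.6, 69.2, 56.1 and 70.0 under salt plus heat, 33.3, 58.0, 58.1 and 20.1 under heat plus drought, and 5.09, 26.0, 7.35 and 16.2 under heat. Of the unheated libraries, drought replicate 2 had 0.42 TPM and control replicate 2 had 0.22 TPM, and the gene model was listed at 0 in the other 14. All 16 heated libraries lay above all 16 unheated ones. Salt plus heat replicate 1 was low beside the other 3 of its group, and heat replicates 1 and 3 were low beside heat replicates 2 and 4.

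TraesCS3B02G130300, the first gene model of the run, ranked second in 9 heated libraries and first in 2. Its TPM were 17.2, 13.3, 19.1 and 20.4 under salt plus heat plus drought, 9.42, 45.8, 56.9 and 38.0 under salt plus heat, 18.2, 35.9, 32.2 and 11.8 under heat plus drought, and 0.53, 9.74, 2.15 and 4.78 under heat. It was listed at 0 in all 4 drought libraries, and the highest unheated library was control replicate 2 with 0.55 TPM. Heat replicate 1 lay just below that value, and the other 15 heated libraries lay above it.

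TraesCS3B02G130500 and TraesCS3B02G131200 stood in the middle. TraesCS3B02G130500 spanned 10.8 to 16.6 TPM under salt plus heat plus drought, 7.08 to 29.3 TPM under salt plus heat, 10.03 to 22.7 TPM under heat plus drought and 0.22 to 5.13 TPM under heat, and no unheated library passed 0.2 TPM. TraesCS3B02G131200 spanned 6.15 to 11.5 TPM under salt plus heat plus drought, 6.92 to 41.4 TPM under salt plus heat, 11.03 to 35.5 TPM under heat plus drought and 1.17 to 10.7 TPM under heat. It was the one member with a trace in most unheated libraries, above 0 in 15 of 16, where it reached 0.88 TPM at most. For both, all heated libraries lay above all unheated ones.

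TraesCS3B02G130900 and TraesCS3B02G131300 were the lowest members. TraesCS3B02G130900 had 3.39, 1.84, 2.32 and 4.01 TPM under salt plus heat plus drought, 1.48, 9.81, 9.26 and 7.57 under salt plus heat, 0.82, 5.14, 2.60 and 1.26 under heat plus drought, and 0, 0.72, 0.22 and 0.48 under heat. TraesCS3B02G131300 had 2.95, 2.45, 3.09 and 3.30 TPM under salt plus heat plus drought, 1.44, 18.5, 6.96 and 19.6 under salt plus heat, 8.72, 14.5, 10.1 and 5.61 under heat plus drought, and 0.82, 9.27, 0.84 and 2.81 under heat. Each was above 0 in a single unheated library, at 0.22 TPM in control replicate 2 for TraesCS3B02G130900 and at 0.18 TPM in salt plus drought replicate 4 for TraesCS3B02G131300. Under heat alone TraesCS3B02G130900 stayed below 1 TPM in all 4 libraries and did not separate from the unheated ones.

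**Figure D1:**
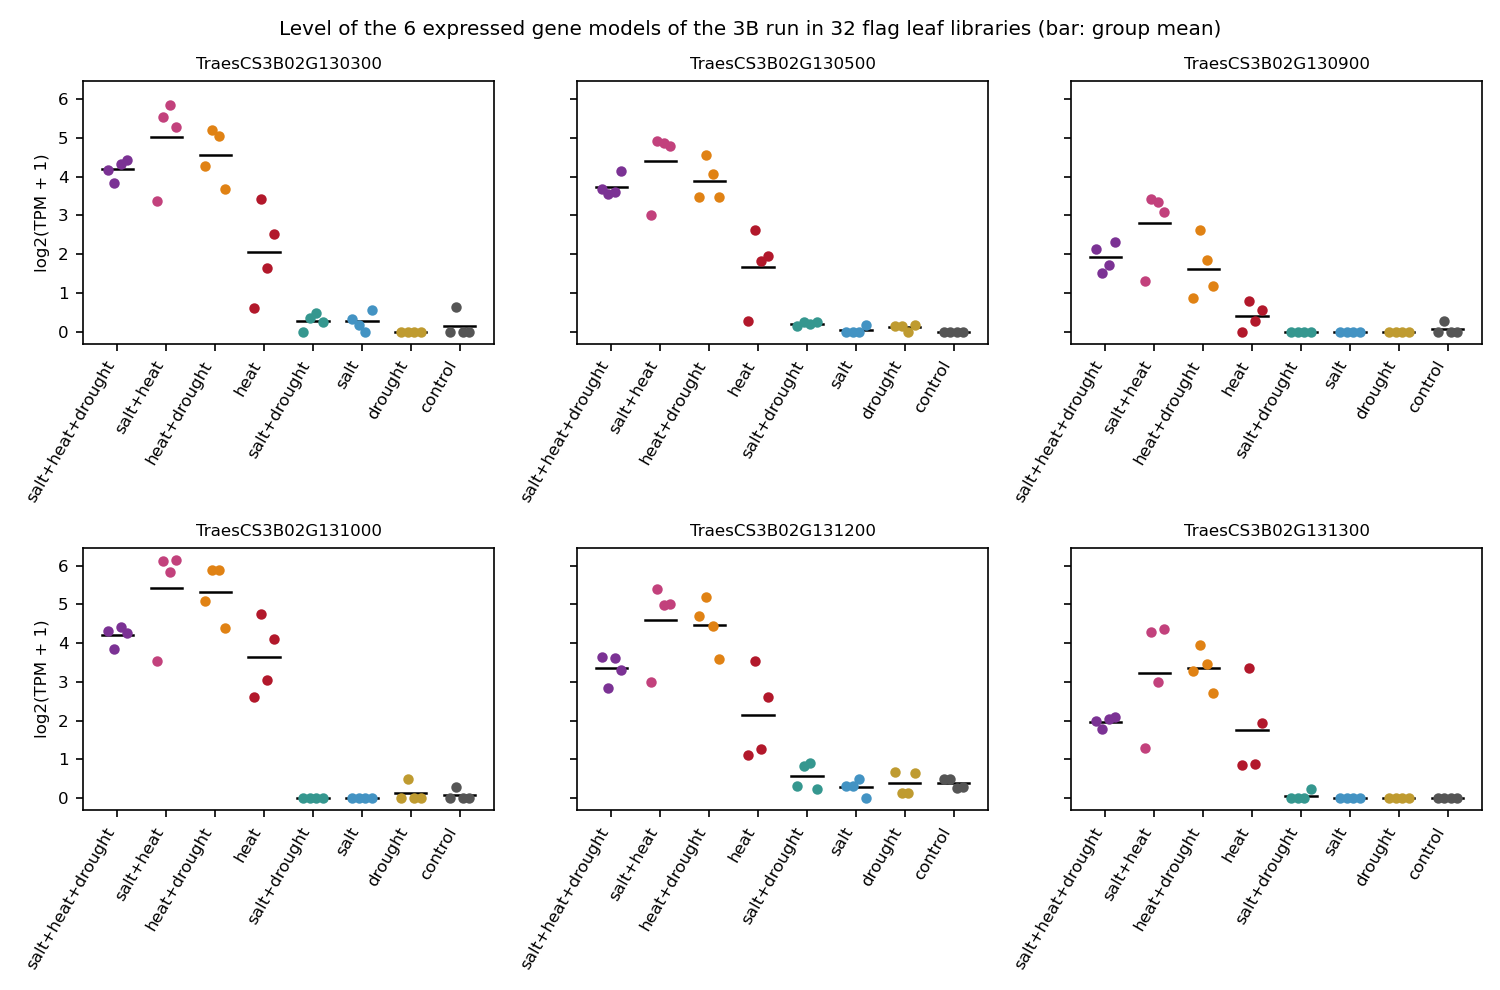
Level of the 6 members as log2(TPM + 1), 1 panel each, by group, with 1 point per library and a bar at the mean of the 4 libraries. The heated groups stand apart from the unheated ones for every member except in the heat group of TraesCS3B02G130300 and TraesCS3B02G130900, and salt plus heat replicate 1 and heat replicates 1 and 3 are the low points of their groups.

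Averaged over 16 heated and 16 unheated libraries, the log2(TPM + 1) difference was 4.59 for TraesCS3B02G131000, 3.78 for TraesCS3B02G130300, 3.33 for TraesCS3B02G130500, 3.23 for TraesCS3B02G131200, 2.57 for TraesCS3B02G131300 and 1.67 for TraesCS3B02G130900. This scale understates the change of gene models with low values. Over all gene models tested the median difference was 0.08, and 309 had a difference of at least 1. For 4 of the 6 members the lowest heated library lay above the highest unheated one, which held for 0.165% of all gene models tested. The members were chosen for this rise, so nothing is read from that count.

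The 5 gene models of the range that missed the threshold were at or near 0 in heated libraries as well. TraesCS3B02G130400 reached 1 TPM in 1 library, at 1.16 TPM in heat plus drought replicate 2, and was above 0 in 10 libraries, of which 9 were heated. TraesCS3B02G130600, TraesCS3B02G130700, TraesCS3B02G130800 and TraesCS3B02G131100 were listed at 0 in all 32 libraries. The member nearest the threshold was TraesCS3B02G130900, with at least 1 TPM in 11 libraries, and the other 5 members reached it in 14 to 16 libraries.

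The large difference between heated and unheated libraries ended at both edges of the run, but high levels did not. A neighbour past the run averaged 54.2 TPM in heated and 60.6 TPM in unheated libraries. TraesCS3B02G130200, next door on one side, had 1.32 ± 0.25 TPM in heated and 1.26 ± 0.33 TPM in unheated libraries (SD, n = 16 each). TraesCS3B02G131400, on the other side, had 9.94 ± 3.45 TPM in heated and 7.73 ± 2.68 TPM in unheated libraries, a log2(TPM + 1) difference of 0.32. Of the 20 high confidence gene models taken from either side, 14 passed the threshold on low values. Their differences had a median of 0.04 and lay between -0.29 for TraesCS3B02G129800 and 0.37 for TraesCS3B02G129900, below every member. The run was chosen for its rise with heat, so nothing is read from where its edges fall.

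**Figure D2:**
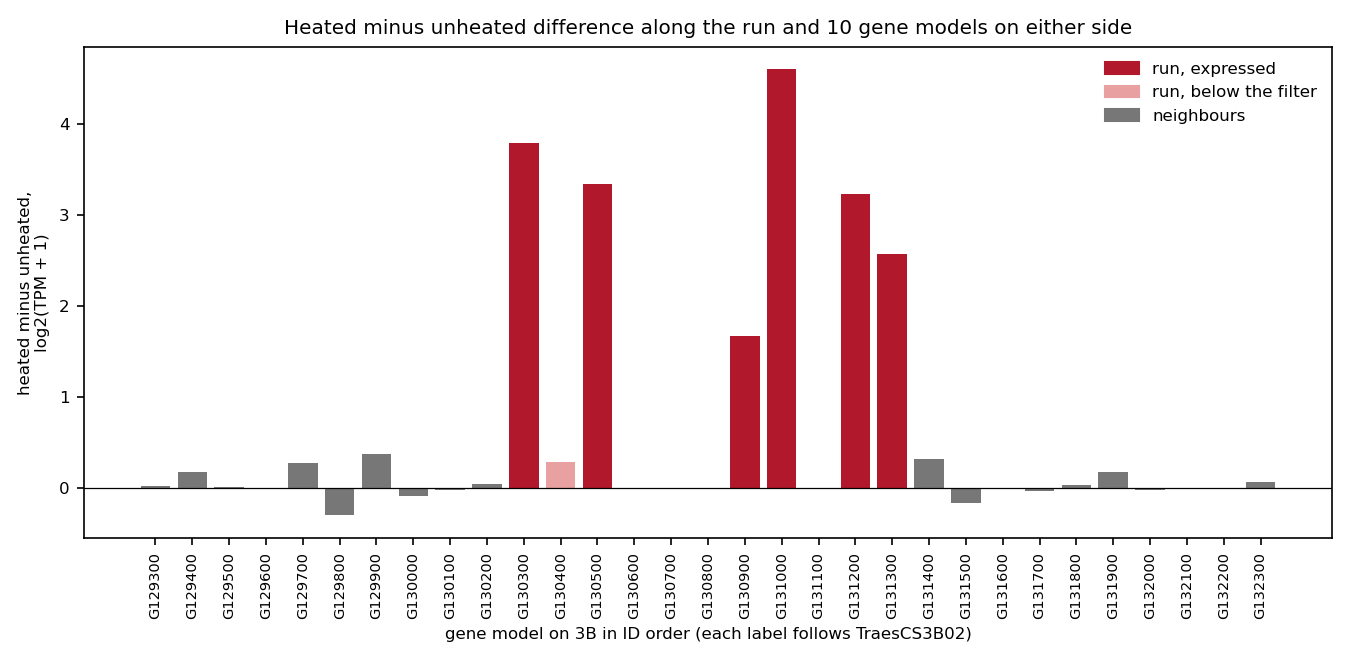
Heated minus unheated mean of log2(TPM + 1) for the 11 gene models of the run and 10 on either side, in identifier order. Members lie between 1.67 and 4.59 and neighbours that passed the threshold between -0.29 and 0.37. The run was chosen for this difference.

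Within the heat, the groups were ordered salt plus heat, heat plus drought, salt plus heat plus drought and heat by their mean summed TPM. The ranges of neighbouring groups in that order overlapped: 36.9 to 214 TPM under salt plus heat, 59.8 to 172 TPM under heat plus drought, 47.9 to 71.2 TPM under salt plus heat plus drought, and 7.83 to 61.6 TPM under heat. TraesCS3B02G130900 differed in its order, with salt plus heat plus drought (2.89 ± 0.99 TPM) above heat plus drought (2.46 ± 1.94 TPM), and TraesCS3B02G131300 had its lowest mean under salt plus heat plus drought (2.95 ± 0.36 TPM, against 3.43 ± 4.0 TPM under heat). Neither pair differed beyond its spread.

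Whether salt and drought changed the run in heated plants was tested with limma, with p-values adjusted over all gene models tested by the Benjamini-Hochberg method. Salt, averaged over heated plants with and without drought (8 against 8 libraries), raised 3 of the 6 members, where 9.91% of all gene models tested were called in either direction. TraesCS3B02G130900 rose by 1.34 on the log2(TPM + 1) scale (SE 0.23, limma adjusted p = 0.000974), TraesCS3B02G130300 by 1.302 (SE 0.31, adjusted p = 0.0108) and TraesCS3B02G130500 by 1.29 (SE 0.25, adjusted p = 0.00239). TraesCS3B02G131200 (0.67, adjusted p = 0.142), TraesCS3B02G131000 (0.34, adjusted p = 0.451) and TraesCS3B02G131300 (0.05, adjusted p = 0.936) did not pass. The 3 called members lie in the first part of the run by identifier order. Their difference from the other 3 was not tested. The averaged rise was not seen in droughted pots. There, salt plus heat plus drought differed from heat plus drought by -0.36 for TraesCS3B02G130300 (limma adjusted p = 0.801), -0.15 for TraesCS3B02G130500 (0.911) and 0.30 for TraesCS3B02G130900 (0.773). TraesCS3B02G131200 passed without heat replicate 2 (limma adjusted p = 0.0358) or salt plus heat replicate 1 (0.0373).

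The model shares 1 estimate of the spread among all 8 groups. The SD within groups on the log2 scale was 0.68 to 0.97 for the members in heated libraries and 0.06 to 0.26 in unheated ones. The shared estimate is thus too small for comparisons among heated groups, and their SE and adjusted p are understated. For salt in TraesCS3B02G130300 the SE was 0.31 in this model and 0.40 in the heated libraries alone. In a model of the 16 heated libraries alone, an alternative added after the values were seen, TraesCS3B02G130300 lost its call for salt (limma adjusted p = 0.0658), while TraesCS3B02G130900 (adjusted p = 0.0243) and TraesCS3B02G130500 (adjusted p = 0.0371) kept theirs. TraesCS3B02G130300 also lost it with a pseudocount of 0.1 (adjusted p = 0.0501) and, with a smaller rise of 0.84, without heat replicates 1 and 3 (adjusted p = 0.113).

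Drought, averaged over heated plants with and without salt, changed 0 of the 6 members by limma, where 1.0% of all gene models tested were called. At an unadjusted p under 0.05 there were 2, TraesCS3B02G130300 (log2 difference 0.83, 95% interval 0.20 to 1.47, adjusted p = 0.173) and TraesCS3B02G130500 (0.79, 0.28 to 1.295, adjusted p = 0.109). Of the 60684 gene models tested, 9631 met that level. The other 4 members had differences between 0.17 and 0.55.

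Without heat, no member reached 1 TPM in any library, and all but TraesCS3B02G131200 were listed at 0 in 8 to 15 of the 16 libraries, so a change there was hardly detectable. Differences for drought and for salt in unheated plants lay between -0.10 and 0.19 on the log2(TPM + 1) scale. By limma 0 members were called, also at an unadjusted p under 0.05, which 5147 of the 60684 gene models tested met for drought and 16976 for salt. Of all gene models tested, 0.119% were called for drought and 5.54% for salt (3362, and 8055 without salt replicate 3), and nothing is read from these counts. With the unheated effects held near 0 in this way, the difference of an effect between heated and unheated plants largely restates the effect within heat and is no further evidence. For salt it was 1.38 for TraesCS3B02G130900, 1.22 for TraesCS3B02G130500 and 1.12 for TraesCS3B02G130300, with 0 of 6 members and 0.0313% of all gene models tested called by limma. At an unadjusted p under 0.05 were 3 members and 2498 of the 60684 gene models tested. For drought, 0 members and 0.359% of all gene models tested were called, and 1 member and 6836 gene models had an unadjusted p under 0.05.

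Averages over the background hid differences between single heated groups. After these values were seen, each combination with heat was therefore set against heat alone, and salt plus heat plus drought against both pairs. These comparisons share libraries with each other, and those with heat alone share the heat group with any choice of the run made on heat against control. TraesCS3B02G130900, at most 0.72 TPM under heat, reached the threshold only in heated groups with salt or drought. Its rises over heat alone therefore lean on the groups that admitted it as a member.

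Salt added to heat raised all 6 members over heat alone, where 11.1% of all gene models tested were called. Mean TPM were 51.5 ± 27.99 under salt plus heat and 13.7 ± 9.54 under heat for TraesCS3B02G131000 (SD, n = 4 each). They were 37.5 ± 20.3 under salt plus heat and 4.30 ± 4.03 under heat for TraesCS3B02G130300, and 27.5 ± 14.6 under salt plus heat and 4.60 ± 4.45 under heat for TraesCS3B02G131200. On the log2(TPM + 1) scale TraesCS3B02G130300 rose most, by 2.96 (SE 0.44, limma adjusted p = 0.000318), followed by TraesCS3B02G130500 with 2.73 (adjusted p = 6.3e-05), TraesCS3B02G131200 with 2.46 (adjusted p = 0.00147), TraesCS3B02G130900 with 2.39 (adjusted p = 0.000171), TraesCS3B02G131000 with 1.78 (adjusted p = 0.011) and TraesCS3B02G131300 with 1.47 (adjusted p = 0.0384). This order depends on the scale, which understates changes at low values. TraesCS3B02G130900 averaged 0.355 ± 0.313 TPM under heat and 7.03 ± 3.82 TPM under salt plus heat. The median over all gene models tested was 0.24 in this comparison, and relative to it TraesCS3B02G130300 rose by 2.72. All 4 salt plus heat libraries lay above all 4 heat libraries for TraesCS3B02G130500 and TraesCS3B02G130900, an arrangement found for 8.50% of all gene models tested.

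In the heated libraries alone the calls of TraesCS3B02G131000 (limma adjusted p = 0.0687) and TraesCS3B02G131300 (adjusted p = 0.132) were lost and the other 4 kept. In a model of the salt plus heat and heat libraries alone, 0 of 6 were called, with limma adjusted p between 0.108 and 0.334. That model called 24 of the 60684 gene models tested. TraesCS3B02G131300 also lost its call under quantile normalisation (1.27, adjusted p = 0.089), median-of-ratios scaling (0.0844), a pseudocount of 0.1 (0.052), no filter on low values (0.0765), removal of the 100 most abundant gene models (0.0614) and title numbers as a block (0.101). So it did without heat replicate 1 (adjusted p = 0.177), heat replicate 3 (0.14), or salt plus heat replicate 2 (0.0952), 3 (0.0782) or 4 (0.101). TraesCS3B02G131000 lost its call without heat replicate 1 (adjusted p = 0.0674).

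Drought added to heat raised 3 of the 6 members over heat alone, where 0.694% of all gene models tested were called. TraesCS3B02G130300 averaged 24.5 ± 11.4 TPM under heat plus drought and 4.30 ± 4.03 TPM under heat, a log2(TPM + 1) rise of 2.49 (SE 0.44, limma adjusted p = 0.00535). TraesCS3B02G131200 rose by 2.34 (SE 0.43, adjusted p = 0.00903) and TraesCS3B02G130500 by 2.22 (SE 0.35, adjusted p = 0.00268). TraesCS3B02G131000 (1.68, adjusted p = 0.0552), TraesCS3B02G130900 (1.22, adjusted p = 0.0719) and TraesCS3B02G131300 (1.60, adjusted p = 0.0856) did not pass. All 6 members had an unadjusted p under 0.05, as did 10081 of the 60684 gene models tested. All 4 heat plus drought libraries lay above all 4 heat libraries for 4 members, the 3 called and TraesCS3B02G130900, against 6.70% of all gene models tested. TraesCS3B02G131200 lost its call without heat replicate 1 (limma adjusted p = 0.0583) or heat plus drought replicate 2 (0.0607). TraesCS3B02G131000 passed without heat replicate 2, heat replicate 4 or heat plus drought replicate 4 (adjusted p between 0.0208 and 0.0433), TraesCS3B02G131300 without heat replicate 2 (0.0163), and TraesCS3B02G130900 without heat plus drought replicate 1 (0.0474). In the heated libraries alone no member was called, with limma adjusted p between 0.0687 and 0.0944 for the 3.

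With all 3 stresses, 3 members rose over heat alone, where 14.9% of all gene models tested were called. They were TraesCS3B02G130300 (2.14, SE 0.44, limma adjusted p = 0.00234), TraesCS3B02G130500 (2.08, SE 0.35, adjusted p = 0.000454) and TraesCS3B02G130900 (1.52, SE 0.33, adjusted p = 0.00378), and all 3 were also called in the heated libraries alone. Their 4 libraries under salt plus heat plus drought lay above all 4 heat libraries, an arrangement found for 15.6% of all gene models tested. TraesCS3B02G131200 (1.22, adjusted p = 0.0557), TraesCS3B02G131000 (0.58, adjusted p = 0.342) and TraesCS3B02G131300 (0.22, adjusted p = 0.764) did not pass. TraesCS3B02G131200 passed without heat replicate 2 (limma adjusted p = 0.00964) or 4 (0.0386).

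**Figure D3:**
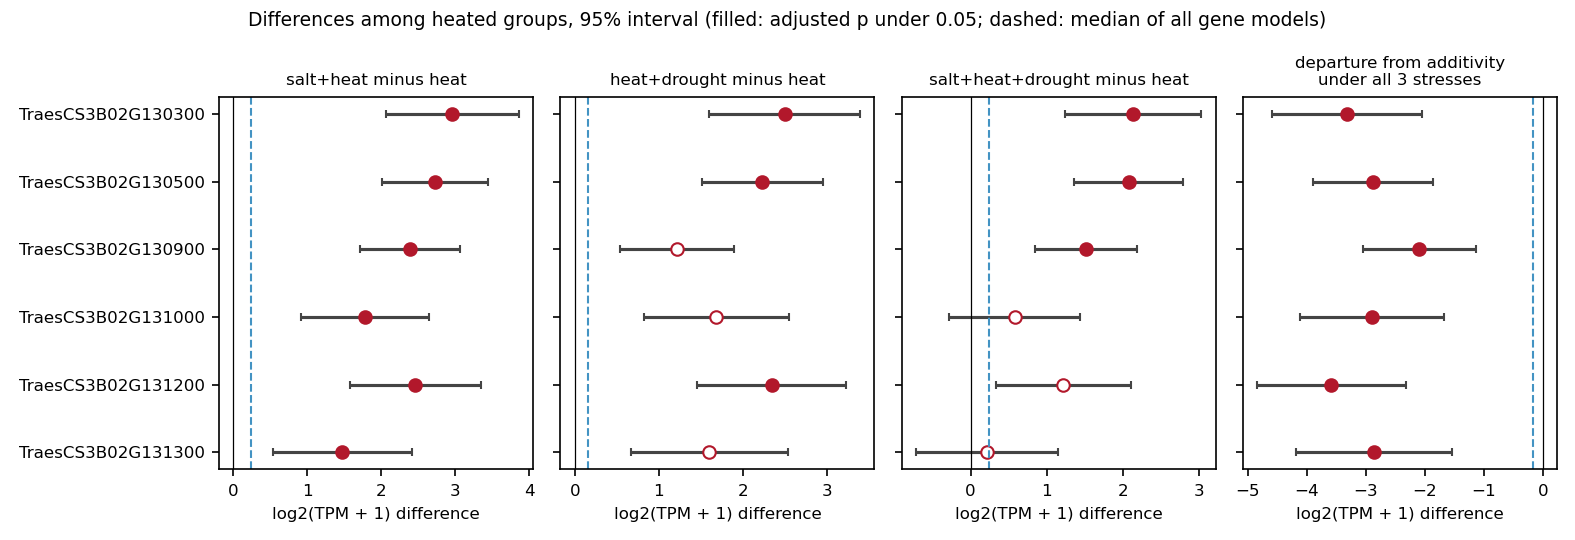
Log2(TPM + 1) differences of the 6 members between heated groups, with 95% intervals from the limma model of all 32 libraries. That model shares its spread with unheated libraries, so the intervals are narrower than the heated libraries alone would give. Differences of salt plus heat from heat run from 1.47 to 2.96, and the departure from additivity lies between -3.58 and -2.10.

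Against the pairs of stresses, the triple combination gave lower values for most members, and none passed. Set against salt plus heat, the log2(TPM + 1) differences under salt plus heat plus drought lay between -1.26 for TraesCS3B02G131300 and -0.65 for TraesCS3B02G130500, with 0 members called by limma, 4 at an unadjusted p under 0.05, and 0.246% of all gene models tested called. Of the 60684 gene models tested, 7230 had an unadjusted p under 0.05. Without salt plus heat replicate 1, the low library of that group, TraesCS3B02G131000 (-1.83, limma adjusted p = 0.0198), TraesCS3B02G130900 (-1.37, adjusted p = 0.0251) and TraesCS3B02G131300 (-1.91, adjusted p = 0.0321) were called. Set against heat plus drought, TraesCS3B02G131300 (-1.38, adjusted p = 0.184), TraesCS3B02G131200 (-1.12, adjusted p = 0.274) and TraesCS3B02G131000 (-1.11, adjusted p = 0.265) had an unadjusted p under 0.05, 0 members were called, and 0.735% of all gene models tested were. In this comparison 7200 of the gene models tested had an unadjusted p under 0.05. All 4 libraries of TraesCS3B02G131300 under salt plus heat plus drought lay below all 4 under heat plus drought, as for 4.26% of all gene models tested.

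In the model of all 32 libraries, the rise with salt and the rise with drought did not add up on the log2 scale. This comparison, too, was added after the values were seen. Additivity would place salt plus heat plus drought above heat alone by the sum of the single rises. Instead the departure was -3.58 for TraesCS3B02G131200 (SE 0.61, limma adjusted p = 0.00432), -3.32 for TraesCS3B02G130300 (SE 0.62, adjusted p = 0.00875), -2.89 for TraesCS3B02G131000 (SE 0.60, adjusted p = 0.0214), -2.88 for TraesCS3B02G130500 (SE 0.50, adjusted p = 0.00467), -2.86 for TraesCS3B02G131300 (SE 0.65, adjusted p = 0.0422) and -2.10 for TraesCS3B02G130900 (SE 0.47, adjusted p = 0.0386). All 6 members were called, against 0.366% of all gene models tested. In the heated libraries alone 0 of 6 passed, with limma adjusted p between 0.119 and 0.249, where 12 of the 60684 gene models tested were called. The calls of TraesCS3B02G130300, TraesCS3B02G130500 and TraesCS3B02G131200 remained with each single heated library left out. Of the 16 such omissions, TraesCS3B02G131000 lost its call in 5 (limma adjusted p up to 0.0692), TraesCS3B02G130900 in 10 (up to 0.108) and TraesCS3B02G131300 in 11 (up to 0.119). The count was 3 of 6 without heat replicate 1, heat replicate 3, heat plus drought replicate 2, heat plus drought replicate 3 or salt plus heat replicate 4.

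The low level of heat alone rests in part on 2 libraries. The run summed to 7.83 TPM in heat replicate 1 and 14.5 TPM in heat replicate 3, and to 61.6 TPM in heat replicate 2 and 32.3 TPM in heat replicate 4. The 100 most abundant gene models took 36.1% of all TPM in heat replicate 1, 32.2% in heat replicate 3, 21.7% in heat replicate 2 and 20.8% in heat replicate 4. With the 100 most abundant gene models removed and TPM rescaled, calls by limma were 3 of 6 for salt within heat and 5 for salt plus heat against heat. They were 3 for heat plus drought against heat, 3 for salt plus heat plus drought against heat and 6 for the departure from additivity. Calls among the 60584 gene models of that fit were, in the same order, 4697, 4328, 517, 7723 and 280. The cause of the low level in the 2 libraries was not tested. Without replicates 1 and 3, an alternative added after the values were seen, heat averaged 46.9 TPM. Calls by limma were then 2 of 6 for salt within heat, 3 for salt plus heat against heat, 1 for heat plus drought against heat, 1 for salt plus heat plus drought against heat, and 1 for the departure from additivity. In each of these, TraesCS3B02G130500 was among the called, with a departure of -2.26 (adjusted p = 0.0293). The fall in calls cannot be told apart from the loss of power with fewer heat libraries. Over all alternatives other than leaving out 1 library, calls among all gene models were 1771 to 6473 for salt within heat. They were 2193 to 9331 for salt plus heat plus drought against heat.

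Salt plus heat replicate 1 was low for the whole run, at 36.9 TPM beside 214, 188 and 193 TPM in replicates 2 to 4, and its deviation from the group averaged -1.66 on the log2 scale over the 6 members. Its 100 most abundant gene models held 17.3% of all TPM. Without it the group averaged 198 TPM.

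The make-up of the run also differed between heated groups, which is given as a description. TraesCS3B02G131000 held 28.1% ± 2.14 of the summed TPM under salt plus heat plus drought, 31.8% ± 3.34 under salt plus heat, 35.9% ± 3.87 under heat plus drought and 52.0% ± 9.46 under heat (SD, n = 4 each). Its lowest share under heat, 42.3%, lay above its highest in the other heated groups, 41.7%. TraesCS3B02G130300 ran the other way, with 27.7% ± 1.08 under salt plus heat plus drought, 24.2% ± 4.72 under salt plus heat, 20.7% ± 1.83 under heat plus drought and 13.1% ± 4.22 under heat. TraesCS3B02G130900 held 4.51% ± 1.04 under salt plus heat plus drought and 4.36% ± 0.48 under salt plus heat, and 1.96% ± 0.88 under heat plus drought and 1.04% ± 0.71 under heat. Every library with salt and heat lay above every heated library without salt in that share, with 3.44% as the lowest of the first and 2.99% as the highest of the second. TraesCS3B02G131300 held 4.70% ± 0.28 under salt plus heat plus drought, 6.61% ± 3.30 under salt plus heat, 8.54% ± 0.94 under heat plus drought and 10.01% ± 3.88 under heat. Shares sum to the whole and depend on how reads were divided between similar members.

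**Figure D4:**
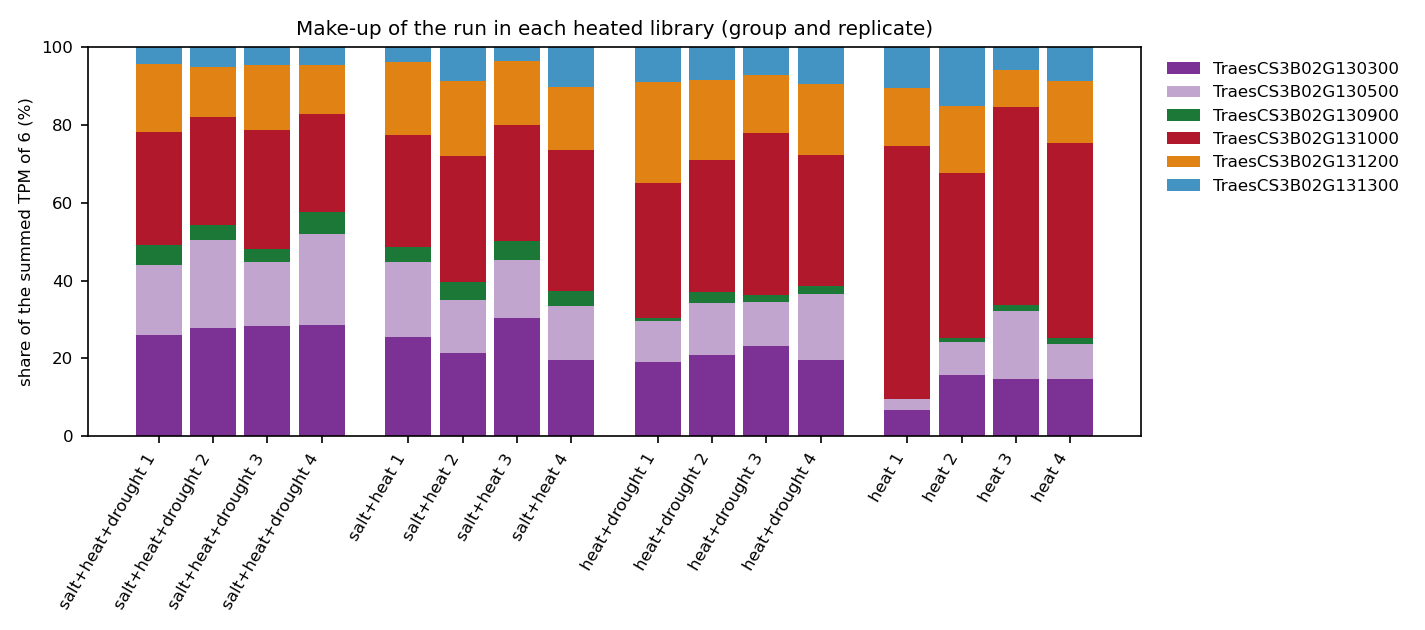
Share of each member in the summed TPM of the run, in percent, for the 16 heated libraries by group. TraesCS3B02G131000 has its highest shares under heat alone (42.3% to 65.0%) and TraesCS3B02G130900 its lowest mean share there, in a range (0% to 1.52%) that overlaps that of heat plus drought.

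The members moved together from library to library. Over 32 libraries, Pearson's r of log2(TPM + 1) between the 15 pairs of members ran from 0.87 to 0.993 with a median of 0.964. These values mostly contrast heated with unheated libraries. In the 16 heated libraries with group means removed, r was 0.75 to 0.957 with a median of 0.856, highest between TraesCS3B02G130300 and TraesCS3B02G131000 and lowest between TraesCS3B02G130900 and TraesCS3B02G131300. The points share libraries and their scaling, and reads divided between similar members, so r is given without a p.

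Outside the run, the gene model whose profile was most like the mean of the members over 32 libraries was TraesCS3A02G113100 on 3A, with r = 0.995. It had 17.2 ± 3.29 TPM under salt plus heat plus drought, 47.1 ± 22.7 TPM under salt plus heat, 32.8 ± 16.1 TPM under heat plus drought and 4.99 ± 5.0 TPM under heat (SD, n = 4 each), and at most 0.34 TPM without heat. TraesCS2A02G277100 on 2A followed with r = 0.990 and a higher level, 32.01 ± 3.70 TPM under salt plus heat plus drought, 104 ± 44.4 TPM under salt plus heat, 58.2 ± 29.7 TPM under heat plus drought and 12.04 ± 9.09 TPM under heat. Both have the order of the heated groups seen in the run, which is no further evidence because they were picked for likeness to it. The next 8 had r between 0.977 and 0.982 and were TraesCS4B02G212300, TraesCS3D02G115300, TraesCS2D02G033200, TraesCSU02G116400, TraesCS2D02G276000, TraesCS5B02G257000, TraesCS2B02G294500 and TraesCS4D02G145600. With group means removed in the heated libraries, r of these 10 with the run was 0.812 to 0.965.

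Of the 50 gene models most like the run, all with r of at least 0.934, 8 lay on 3A, 3B or 3D, a share of 16.0% where 15.1% of all gene models tested lie on these chromosomes. By identifier, 2 of them were next to each other on 3A, TraesCS3A02G113000 (r = 0.953) and TraesCS3A02G113100. A further 3 lay close together on 3D, TraesCS3D02G114700 (r = 0.939), TraesCS3D02G115000 (r = 0.948) and TraesCS3D02G115300 (r = 0.981). Their mean TPM under salt plus heat plus drought, salt plus heat, heat plus drought and heat were 1.78, 15.1, 8.68 and 2.01 for TraesCS3A02G113000, and 2.89, 9.11, 7.25 and 2.0 for TraesCS3D02G115300. TraesCS3D02G115000 had 2.28, 7.81, 3.90 and 0.46 TPM in those groups, and TraesCS3D02G114700 had 1.83, 6.13, 5.47 and 3.26. All 4 were highest under salt plus heat, and all 4 were picked for likeness to the run. The remaining 3 were TraesCS3A02G294500 (r = 0.968), TraesCS3B02G390700 (r = 0.960) and TraesCS3D02G294300 (r = 0.959), and 2 of these, TraesCS3A02G294500 and TraesCS3D02G294300, were also measured without heat, at up to 6.23 and 7.50 TPM. Reads divided between copies on the 3 subgenomes could link such profiles, which was not tested.

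**Figure D5:**
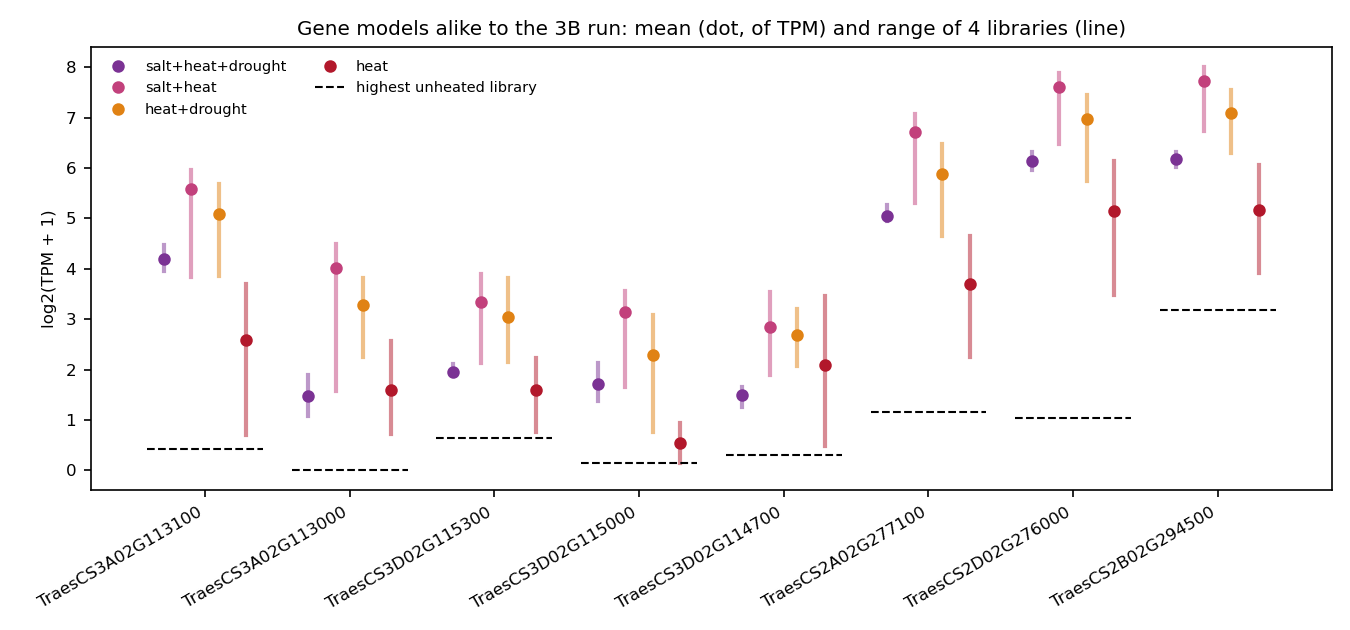
Level of 8 gene models among those most like the run, as log2(TPM + 1), with a dot at the mean TPM of each heated group, a line over its 4 libraries and a dashed line at the highest unheated library. TraesCS3A02G113100, at the left, has a mean of 47.1 TPM under salt plus heat and 4.99 TPM under heat, and at most 0.34 TPM without heat.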

How the data were processed

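Flag leaf RNA was sequenced in 32 libraries, placed in 8 groups from their source names. The series design text gives STAR as the authors' aligner and RSEM 1.3.3 with the IWGSC 1.1 gene models as the source of the deposited TPM, and the submitters' processing notes also name CASAVA and Trimmomatic. The deposited TPM of 298774 transcripts were summed per gene model, 1 transcript for each member. Kept were gene models that reached 1 TPM in 4 libraries or more, and log2(TPM + 1) was tested with limma 3.58.1 in R 4.3.3 (group means, empirical Bayes with a trend, 24 residual degrees of freedom, two-sided, adjusted p threshold 0.05). The p-values measure the spread between libraries, pooled over the 8 groups, which for the members is below that of the heated groups. Of 12 comparisons, 6 were added after values were seen. The members, lists and tests were chosen with earlier results of these data known. Named gene models are the members, those of the range that were filtered out, the next ones on either side, the 10 most like the run and those of the 50 most alike on 3A, 3B and 3D. A reference table of 155467 genes on another assembly matched 0 of the 11 identifiers, so no names, functions, coordinates or sequences are given. The fit was run on simulated data, drawn as normal values with the same spread in all groups for a gene model. The unequal spread of the members between heated and unheated libraries was not simulated, so that run does not bear on it. Alternatives were other pseudocounts, filters, scalings, blocks, variance models and sets of libraries.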

Additional observations from a re-analysis of the deposited data

Results flagged for a closer look

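Among 56 groups of 4 libraries, 11 had a library far from the other 3 by Dixon's ratio. Among groups of spread values chance gives about 1 in 20, a rate that does not apply to groups with 3 libraries listed at 0 and a trace in the fourth, where the ratio is at its maximum by construction. The 3 in heated plants were TraesCS3B02G130500 in salt plus heat plus drought replicate 4, high at 16.6 TPM, and in salt plus heat replicate 1, low at 7.08 TPM, and the summed TPM of the run in salt plus heat replicate 1, low at 36.9. The other 8 were in unheated plants at traces of TPM. Control replicate 2 was high for TraesCS3B02G130300 (0.55 TPM), TraesCS3B02G130900 (0.22 TPM) and TraesCS3B02G131000 (0.22 TPM). Drought replicate 2 was high for TraesCS3B02G131000 (0.42 TPM), salt replicate 4 for TraesCS3B02G130500 (0.12 TPM) and salt plus drought replicate 4 for TraesCS3B02G131300 (0.18 TPM). Drought replicate 3 was low for TraesCS3B02G130500, listed at 0, and for the summed TPM (0.1).

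The effect of salt in heated plants differed between droughted and watered pots by a limma test of the difference for all 6 members. The test was added after the values were seen. The differences on the log2(TPM + 1) scale were -3.32 for TraesCS3B02G130300, -2.88 for TraesCS3B02G130500, -2.10 for TraesCS3B02G130900, -2.89 for TraesCS3B02G131000, -3.58 for TraesCS3B02G131200 and -2.86 for TraesCS3B02G131300. None passed in the heated libraries alone, where 12 of the 60684 gene models tested did.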

How the results depend on the processing

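Under the alternatives, counts of called members (of 6) moved by over 1.5 times as follows. Heat plus drought against heat had 3 calls, and 0 with the groups compared alone, 0 with the heated libraries alone and 1 without heat replicates 1 and 3. Salt plus heat against heat had 6, and 0 with the groups alone and 3 without heat replicates 1 and 3. Salt plus heat plus drought against heat had 3, and 1 without heat replicates 1 and 3. Against heat plus drought it had 0, and 1 with the groups alone. The departure from additivity had 6 calls, and 2 with a pseudocount of 0.1, 3 with no filter, 0 with the groups alone or the heated libraries alone, 3 with title numbers as a block and 1 without heat replicates 1 and 3. With the groups alone, calls among all 60684 gene models tested were 5 for heat plus drought against heat and 24 for salt plus heat against heat. They were 1088 for salt plus heat plus drought against heat plus drought and 12 for the departure. For the departure, calls among all gene models were 164 with a pseudocount of 0.1, 157 of 128716 with no filter and 137 with title numbers as a block. Leaving out 1 library at a time gave 3 to 4 calls for salt within heat, 0 to 2 for the difference of the salt effect with heat (2 without salt plus heat replicate 1), 2 to 5 for heat plus drought against heat (5 without heat replicate 2), 4 to 6 for salt plus heat against heat, 3 to 4 and 0 to 3 for salt plus heat plus drought against heat and against salt plus heat, and 3 to 6 for the departure. Calls among all gene models tested also moved widely. In the same order they were 2874 to 9378, 15 to 45, 86 to 1358, 1641 to 11196, 3897 to 12926, 8 to 367 and 114 to 395. The median r between members, 0.964, was 0.906 by Spearman and 0.856 in heated libraries with group means removed.

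Reversals were confined to members not called. For drought within heat, TraesCS3B02G130900 was -0.051 with a pseudocount of 5, -0.039 with title numbers as a block and -0.078 to 0.30 with 1 library left out. TraesCS3B02G131000 was -0.072 to 0.43 with 1 library left out and -0.16 without heat replicates 1 and 3, and TraesCS3B02G131300 was -0.15 to 0.44 and -0.27. For salt within heat, TraesCS3B02G131000 was -0.062 without heat replicates 1 and 3. TraesCS3B02G131300 was -0.10 under quantile normalisation, -0.074 under median-of-ratios scaling, -0.011 without the 100 most abundant gene models, -0.14 to 0.37 with 1 library left out and -0.40 without heat replicates 1 and 3. Against heat alone, the triple combination gave -0.22 for TraesCS3B02G131000 and -0.67 for TraesCS3B02G131300 without heat replicates 1 and 3, and -0.08 to 0.75 for TraesCS3B02G131300 with 1 library left out. Against heat plus drought, TraesCS3B02G130500 was -0.29 to 0.075 with 1 library left out. The causes were not tested.

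Same-numbered replicates did not deviate together (median correlation 0.005, with 27 of 112 pairs over 0.1), so the numbers do not pair libraries. The replicate block changed 1 member's call, TraesCS3B02G131000 in heat plus drought against heat (1.68, limma adjusted p = 0.0448). Comparisons of heated with unheated effects use all groups, so a model of the compared groups alone is the same model. The summed level of the run rests on TPM without read numbers, so precision below 1 TPM is unknown.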
